A study of Mus musculus with 6 samples.

Results

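The miRNAs miR-126, miR-221 and miR-222 were followed in small RNA libraries of mouse epididymal white adipose tissue (WAT). They were chosen by name, with every arm listed, which gave 6 of the 1983 rows of the table: the 3p and 5p arms of each. Earlier results of these data were known when they were chosen. There were 3 samples of wild type (Wt) and 3 of angiotensinogen transgenic (Agt Tg) male mice of strain C57BL6/J, and the comparison between them asks which miRNAs differ when adipose tissue makes more angiotensinogen, the precursor of angiotensin II. The transgene is driven by the aP2 promoter, which is also active in macrophages, so its expression need not be limited to adipocytes. The labels give a chow diet for all 6 samples and the methods of the study a low fat diet, and neither states the age of the mice. The labels number the samples but do not say that each is a separate mouse, so that p-values measure the spread between these samples. The libraries held 7480766, 7838874 and 9821467 reads in Wt replicates 1 to 3, and 10367417, 6387766 and 10562634 reads in Agt Tg replicates 1 to 3. All 6 rows were above the lowest value the table holds (10 normalised reads, that is, reads per 10000000 of the library total) in all 6 libraries, and rows above it in at least 3 libraries, 329 of the 1983, were tested together.

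A miRNA hairpin is cut into a 5p and a 3p arm, and the arm that is loaded into an Argonaute protein pairs with target mRNAs mainly through its seed, bases 2 to 8. miR-126 is the best known miRNA of endothelial cells, where it supports signalling by vascular growth factors and restrains the adhesion molecule Vcam1. miR-221 and miR-222 are made from one cluster, act in endothelium and vascular smooth muscle on targets such as Kit and the cell cycle inhibitor Cdkn1b, and are also found in adipocytes and leukocytes. In bulk tissue, fewer cells of a type and less RNA per cell cannot be told apart.

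The mature sequences are shown because the seed sets apart the members that can share targets. They were taken from RefSeq (GRCm38.p6), which held 4 of the 6 arms, and are printed 5′ to 3′ with the seed in capitals. miR-126-5p and miR-222-5p had no entry. The mouse gene of miR-126 is called Mir126a there, with Mir126 as a synonym.
miR-126a-3p: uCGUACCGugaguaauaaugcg
miR-221-3p: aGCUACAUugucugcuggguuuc
miR-222-3p: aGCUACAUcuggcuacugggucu
miR-221-5p: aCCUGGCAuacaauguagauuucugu
miR-221-3p and miR-222-3p share their first 8 bases, and so their seed, while 12 of their 23 positions differ. Among the 1738 mature mouse miRNAs held in RefSeq, 3 hold this seed: these arms and miR-1928. The seeds of miR-126a-3p and of miR-221-5p were each held by 1 of the 1738, the arm itself. The table of values carries human miRNA names, and whether the mouse and human sequences are identical was not tested.

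The hairpins show where the arms lie, with the arms held in RefSeq in capitals. Mir126a has 73 bases and lies on the plus strand of chromosome 2 (chr2:26591357-26591429, GRCm38). In GENCODE M21 it lies within Egfl7, which encodes a protein secreted by endothelial cells and is annotated on the same strand from 26580014 to 26593120. Of the 19 annotated transcripts of Egfl7, 8 have the hairpin in an intron, 1 of the retained intron type has it in an exon, and 10 do not span it. It also lies within Gm20532 (26586639 to 26635634), with 0 exons overlapping it. On the opposite strand, Mir126b covers 58 of its bases.
Mir126a: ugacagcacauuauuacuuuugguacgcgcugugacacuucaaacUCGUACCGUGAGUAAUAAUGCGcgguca
Mir221 (chrX:19146294-19146388, 95 bases) and Mir222 (chrX:19146893-19146971, 79 bases) lie on the minus strand of chromosome X with 504 bases between them, and 0 other annotated genes overlap either.
Mir221: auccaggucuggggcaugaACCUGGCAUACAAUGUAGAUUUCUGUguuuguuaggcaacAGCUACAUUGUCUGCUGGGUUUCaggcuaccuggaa
Mir222: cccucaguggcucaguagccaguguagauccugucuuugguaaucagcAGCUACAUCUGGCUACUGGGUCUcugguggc

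The library of Wt replicate 2 stood apart. Summed over a list of 5 epididymis and testis miRNAs it held 88164 normalised reads, against 867 to 1436 in the other 5 libraries, and miR-34c-5p, the most abundant of them, had a log2 value of 16.32. A list of 10 epithelial miRNAs summed to 54620 there and to between 388 and 678 elsewhere. In Wt replicate 2 miR-375 was the most abundant of them, with a log2 value of 15.10, whereas miR-182-5p, at 11.94 there, had the highest mean log2 value of the list over all 6 libraries. Of these lists, miR-34b-5p, miR-34c-3p, miR-429 and miR-96-5p were at the lowest value in every library. The fold changes of the 6 arms are therefore given with and without Wt replicate 2.

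In level, both arms of miR-126 came first, and miR-222-3p and miR-221-3p followed. By mean log2 value among the 329 rows tested, miR-126-5p ranked 21, miR-126-3p 33, miR-222-3p 61, miR-221-3p 69, miR-221-5p 128 and miR-222-5p 232. miR-126-5p was above miR-126-3p, and miR-126-3p above miR-222-3p, in 6 of 6 libraries. miR-222-3p was above miR-221-3p in 4 of 6, by a mean of 0.43 on the log2 scale (SD 0.51), so these neighbours did not differ beyond their spread. miR-221-3p was above miR-221-5p, and miR-221-5p above miR-222-5p, in 6 of 6 libraries. The rows just above and just below in level were miR-100-5p and miR-378a-3p for miR-126-5p, miR-103a-3p and miR-150-5p for miR-126-3p, and miR-335-3p and miR-181c-5p for miR-222-3p. They were miR-423-3p and miR-744-5p for miR-221-3p, miR-410 and miR-4532 for miR-221-5p, and miR-330-5p and miR-205-5p for miR-222-5p. How evenly different sequences were captured in the libraries was not tested, so levels of different miRNAs are compared as reads.

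miR-126-3p had log2 values of normalised reads of 14.66, 14.17 and 14.33 in Wt replicates 1 to 3, and of 14.28, 14.51 and 14.75 in Agt Tg replicates 1 to 3. The groups overlapped, with the lowest value in Wt replicate 2 and the highest in Agt Tg replicate 3. Its log2 fold change, Agt Tg minus Wt, was 0.12 (95% confidence interval −0.37 to 0.62; p adjusted over the 329 rows of the linear model of limma, adjusted p = 0.792), and 0.015 without Wt replicate 2. Leaving out each library in turn gave values from 0.0071, without Agt Tg replicate 3, to 0.26, without Wt replicate 1. These values rested on 14423 to 29042 reads a library, so that counting error was small beside the spread between libraries.

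miR-126-5p had log2 values of 15.90, 15.71 and 15.62 in Wt and of 15.82, 15.93 and 16.47 in Agt Tg replicates 1 to 3. Agt Tg replicate 3 was the highest library for this arm too, and the other 5 lay close together. The log2 fold change was 0.33 (95% confidence interval −0.18 to 0.83; adjusted p = 0.584, limma), 0.31 without Wt replicate 2, and between 0.13 (without Agt Tg replicate 3) and 0.46 (without Agt Tg replicate 1) with each library left out in turn. As linear values, Wt libraries held 55100 ± 5670 and Agt Tg libraries 70295 ± 17890 normalised reads (SD, n = 3). Neither arm of miR-126 differed between genotypes by more than the spread between libraries.

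miR-221-3p had log2 values of 12.46, 12.15 and 12.17 in Wt and of 12.61, 11.34 and 11.04 in Agt Tg replicates 1 to 3. Agt Tg replicate 1 was above every Wt library and Agt Tg replicates 2 and 3 were below every Wt library, so the groups overlapped. The log2 fold change was −0.60 (95% confidence interval −1.55 to 0.36; adjusted p = 0.587, limma), and −0.65 without Wt replicate 2. The minor arm, miR-221-5p, had 9.67, 8.36 and 9.11 in Wt and 10.28, 8.48 and 8.02 in Agt Tg mice. It was also highest in Agt Tg replicate 1 and lowest in Agt Tg replicate 3. Its log2 fold change was −0.12 (95% confidence interval −1.59 to 1.35; adjusted p = 0.912, limma), and −0.46 without Wt replicate 2.

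miR-222-3p, which carries the same seed as miR-221-3p, had log2 values of 13.52, 12.43 and 12.71 in Wt and of 13.57, 11.11 and 11.03 in Agt Tg replicates 1 to 3. The pattern was that of miR-221-3p with a wider range, since Agt Tg replicate 1 was again the highest library and Agt Tg replicates 2 and 3 again lay below every Wt library. From the lowest to the highest library it ranged 5.83-fold. The log2 fold change was −0.98 (95% confidence interval −2.60 to 0.65; adjusted p = 0.587, limma), and −1.21 without Wt replicate 2. miR-222-5p was scarce, with 111, 71 and 39 reads in Wt and 137, 13 and 22 reads in Agt Tg replicates 1 to 3. Its log2 values were 7.21, 6.50 and 5.31 in Wt and 7.05, 4.35 and 4.38 in Agt Tg mice, a 7.29-fold range. For the 13 reads of Agt Tg replicate 2 the exact 95% interval for counting error alone was 6.92 to 22.2 reads. The log2 fold change was −1.08 (95% confidence interval −3.04 to 0.87; adjusted p = 0.616, limma), and −1.004 without Wt replicate 2.

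**Figure D1:**
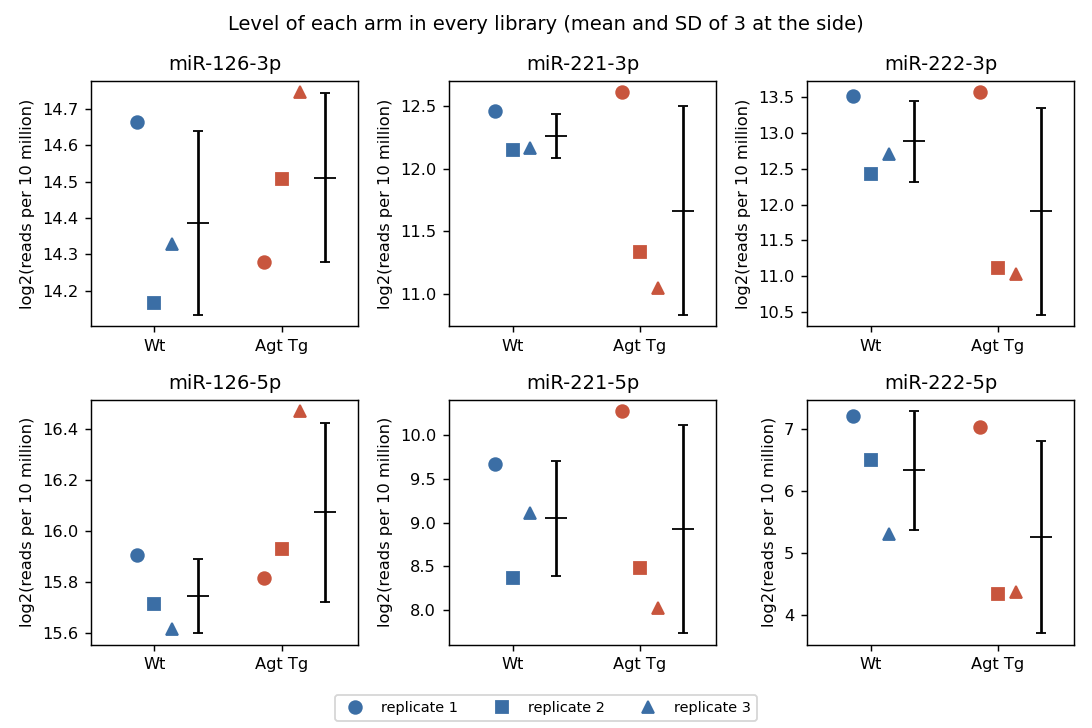
Log2 of normalised reads (per 10000000) of each arm in the 6 libraries, with each symbol 1 library, marked by replicate, and the bar beside them the mean and SD of 3; each panel has its own scale. For both arms of miR-221 and for miR-222-3p, Agt Tg replicate 1 is the highest library, and for miR-221-3p and both arms of miR-222 Agt Tg replicates 2 and 3 lie below every Wt library.

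A miRNA was counted as called at a Benjamini-Hochberg adjusted p under 0.05, or at an unadjusted p of at most 0.05 with a log2 fold change of 1 or more in either direction. At the adjusted threshold limma called 0 of 329 rows (0%) and 0 of the 6 arms. The smallest adjusted p was 0.382 with limma, and the unadjusted p was under 0.05 for 30 rows with limma and for 28 with limma-voom, which also called 0 rows at the adjusted threshold. At the unadjusted threshold 16 rows were called (4.86%), 9 higher and 7 lower in Agt Tg mice, again with 0 of the 6 arms among them. Where rows had to be above the lowest value in all 6 libraries, 9 of 270 (3.33%) were called, 3 higher and 6 lower. The balance of directions thus depended on rows at the lowest value. The groups did not overlap for 58 rows (17.6%) and for 0 of the 6 arms. Without Wt replicate 2 the unadjusted threshold called 22 of 321 rows (6.85%) and 0 of the 6 arms. The median log2 fold change of all 329 rows was −0.19, and TMM scaling, which sets libraries level by the bulk of their rows, moved this median by 0.11. Relative to the median, the arms lay at 0.31 (miR-126-3p), 0.51 (miR-126-5p), −0.41 (miR-221-3p), 0.067 (miR-221-5p), −0.79 (miR-222-3p) and −0.90 (miR-222-5p), so that miR-221-5p changed sign on this scale. miR-191-5p, the reference miRNA of the study, had a log2 fold change of 0.0051, and of −0.22 without Wt replicate 2.

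**Figure D2:**
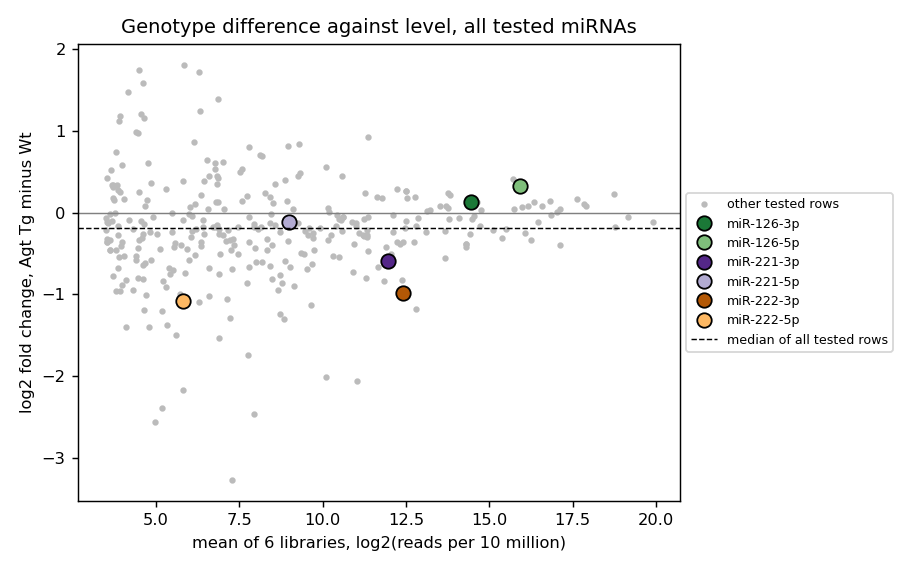
Log2 fold change (Agt Tg minus Wt) against the mean log2 value of 6 libraries for the 329 rows tested, with the 6 arms in colour and the median of all rows (−0.19) as a dashed line. The arms of miR-126 lie above the median and miR-221-3p and both arms of miR-222 below it.

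For miR-221 and miR-222 the fold changes depended on single libraries, and leaving out Agt Tg replicate 1 moved arms past a threshold. Without Agt Tg replicate 1 the log2 fold change was −1.07 for miR-221-3p (adjusted p = 0.190, limma), −1.81 for miR-222-3p (adjusted p = 0.187, limma) and −1.98 for miR-222-5p (adjusted p = 0.205, limma). These 3 of 6 arms then passed the unadjusted threshold, among 33 of 320 rows (10.3%), of which 25 were lower and 8 higher. Rows had to be above the lowest value in at least 3 of the libraries left. The 3 Wt libraries could meet this alone, and the Agt Tg libraries left could not. This tilts the rows tested towards lower values in Agt Tg, so the split of 25 and 8 is not read as a result. The adjusted threshold was still passed by 0 rows. Over all 6 ways of leaving out 1 library, the log2 fold change lay between −1.07 and −0.29 for miR-221-3p, between −1.81 and −0.54 for miR-222-3p and between −1.98 and −0.63 for miR-222-5p. The values nearest 0 came without Agt Tg replicate 3 for miR-221-3p and miR-222-3p and without Agt Tg replicate 2 for miR-222-5p. Without Agt Tg replicate 2 miR-222-3p was at −0.58, and without Agt Tg replicate 3 miR-222-5p was at −0.65. miR-221-5p changed sign, at −0.80 without Agt Tg replicate 1 and 0.33 without Agt Tg replicate 3. Nothing in the labels sets Agt Tg replicate 1 apart, and it was left out in turn like every other library.

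**Figure D3:**
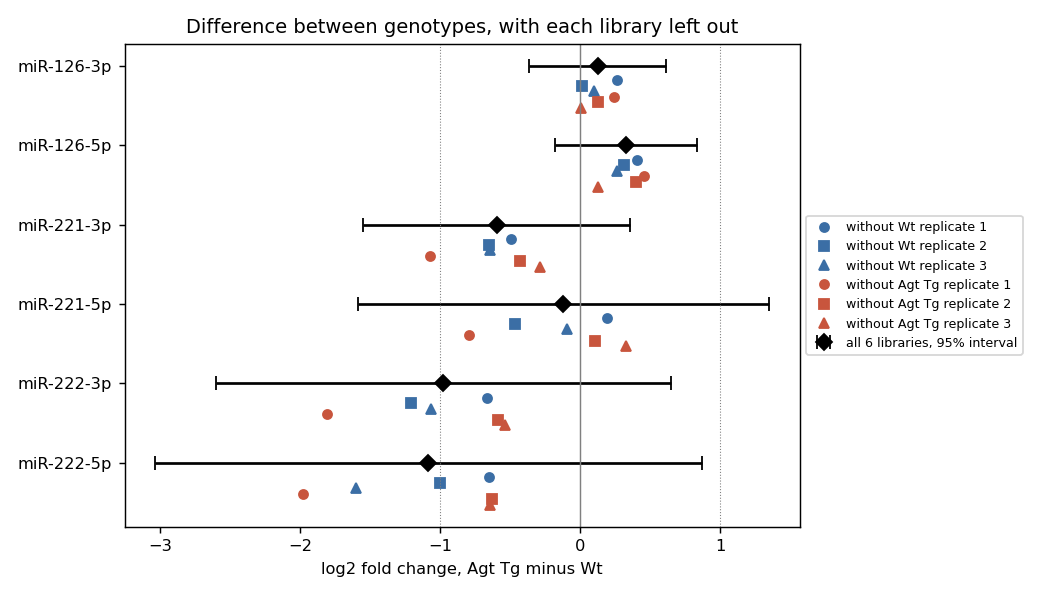
Log2 fold change (Agt Tg minus Wt) of each arm with its 95% confidence interval from all 6 libraries (black), and the value with each library left out (coloured symbols); dotted lines mark −1 and 1. Leaving out Agt Tg replicate 1 gives the lowest value for both arms of miR-221 and of miR-222, and the intervals from all 6 libraries include 0 for all 6 arms.

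Differences within a library do not depend on the scaling between libraries. The 5p arm of miR-126 had more reads than the 3p arm in 6 of 6 libraries, by 2.36-fold to 3.30-fold. As miR-126-3p minus miR-126-5p, the difference of log2 values was −1.36 ± 0.17 in Wt and −1.56 ± 0.15 in Agt Tg mice (SD, n = 3; exact permutation p = 0.3), and the genotypes differed by −0.20, or by −0.30 without Wt replicate 2. For miR-221 the 3p arm dominated in 6 of 6 libraries, and its log2 value exceeded that of the 5p arm by 3.21 ± 0.51 (Wt) and 2.74 ± 0.36 (Agt Tg; SD, n = 3; exact permutation p = 0.4). The genotypes differed there by −0.48, and by −0.19 without Wt replicate 2, which had the largest difference between the arms (13.8-fold). For miR-222 the 3p arm exceeded the 5p arm by 60.9-fold to 168-fold, and the difference was 6.54 ± 0.76 in Wt and 6.65 ± 0.12 in Agt Tg mice (SD, n = 3; exact permutation p = 0.9). The genotypes differed by 0.11, and by 0.53 without Wt replicate 3. The difference was −0.20 without Wt replicate 2 and −0.014 without Wt replicate 1, so the sign was not stable.

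Between the clustered partners, miR-222-3p minus miR-221-3p was 1.05, 0.28 and 0.54 in Wt and 0.96, −0.22 and −0.016 in Agt Tg replicates 1 to 3. miR-222-3p thus had more reads than miR-221-3p in all Wt libraries (1.21-fold in Wt replicate 2) and in Agt Tg replicate 1. miR-221-3p had more in Agt Tg replicate 2 (1.17-fold), and the partners were near equal in Agt Tg replicate 3 (1.01-fold). The genotypes differed by −0.38 (exact permutation p = 0.4), or by −0.55 without Wt replicate 2. The difference was −0.74 without Agt Tg replicate 1, −0.15 without Agt Tg replicate 2, −0.25 without Agt Tg replicate 3 and −0.17 without Wt replicate 1. The permutation tests were two-sided, 3 libraries against 3 cannot give a p below 0.1, and adjusted over the 4 differences the exact permutation p was between 0.533 and 0.9.

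**Figure D4:**
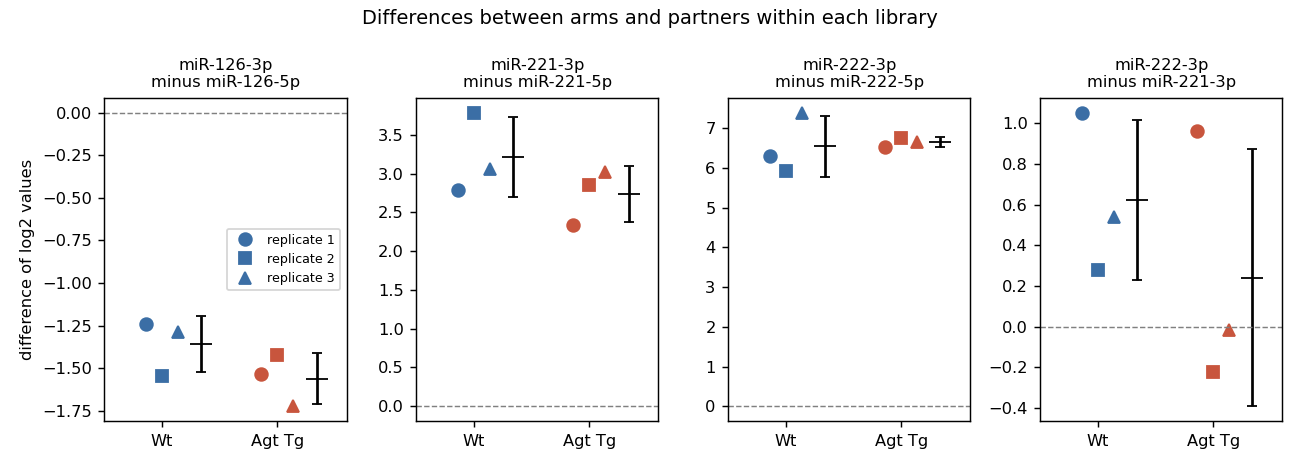
Differences of log2 values within each library, for the arms of each miRNA and for miR-222-3p against miR-221-3p; each symbol is 1 library, the bar beside them the mean and SD of 3, and the dashed line equal reads. The 5p arm leads for miR-126 and the 3p arm for miR-221 and miR-222 in all 6 libraries.

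The arms also differed in how far they varied between libraries. Over all 6 libraries the SD of the log2 values was 0.23 for miR-126-3p, 0.30 for miR-126-5p, 0.63 for miR-221-3p, 0.86 for miR-221-5p, 1.12 for miR-222-3p and 1.30 for miR-222-5p. Among the 108 rows with a mean log2 value of at least 10, miR-222-3p had the 4th and miR-221-3p the 10th largest SD, while miR-126-5p ranked 58 and miR-126-3p 84. Without Wt replicate 2, miR-222-3p ranked 1, miR-221-3p 4, miR-126-5p 46 and miR-126-3p 80. These ranks include the difference between genotypes and are a description.

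**Figure D5:**
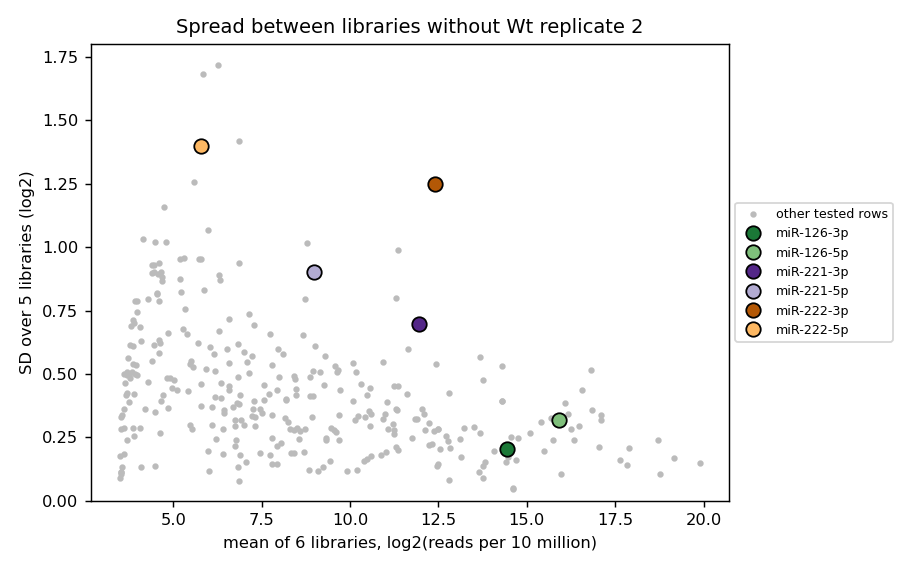
SD of log2 values over the 5 libraries other than Wt replicate 2, against the mean log2 value of 6 libraries, for the 329 rows tested. Among rows with a mean of at least 10, miR-222-3p has the largest SD (1.25), and miR-126-3p (0.20) lies among the less variable rows.

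Likeness between rows was measured as the root mean square difference of log2 values over the 6 libraries, after each row was centred on its own mean. The arms of miR-126 differed from each other by 0.16, those of miR-221 by 0.43, those of miR-222 by 0.45, and miR-221-3p from miR-222-3p by 0.47. This measure also grows with the spread of the rows, so it does not rank these pairs. The SD over 6 libraries was 0.23 and 0.30 for the arms of miR-126, and 1.12 and 1.30 for those of miR-222. The rows most like miR-126-3p were miR-152 (0.13) and miR-203a (0.15), and those most like miR-126-5p were miR-450a-5p (0.081) and miR-148a-3p (0.095). miR-221-3p was most like miR-142-5p (0.13), a leukocyte miRNA, and miR-18a-5p (0.21), whose value was at the lowest the table holds in Agt Tg replicates 2 and 3. miR-221-5p was most like miR-342-3p (0.23) and miR-369-5p (0.30), which was at the lowest value in Agt Tg replicate 3. miR-222-3p was most like miR-379-5p (0.32) and miR-18a-3p (0.40), and miR-222-5p was most like miR-130b-5p (0.39) and miR-222-3p (0.45).

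Of 4 leukocyte markers, 3 had their lowest values in Agt Tg replicates 2 and 3, as miR-221-3p did and as did 77 of all 329 rows (23.4%). The 4 leukocyte miRNAs on the list were all tested, with miR-150-5p the most abundant. They summed to 40640, 41780 and 42067 normalised reads in Wt and to 38598, 30975 and 28282 in Agt Tg replicates 1 to 3. Of the 4, 0 were called (all rows, 4.86%), and the groups did not overlap for 1, miR-150-5p (all rows, 17.6%). The log2 fold change was below 0 for 4 of 4, as for 67.5% of all 329 rows, with a median of −0.59 (−0.64 without Wt replicate 2 and −0.90 without Agt Tg replicate 1), beside −0.19 for all rows (−0.26 without Agt Tg replicate 1). miR-142-5p had 13.98, 13.93 and 13.95 in Wt and 14.15, 13.14 and 12.88 in Agt Tg replicates 1 to 3, so that Agt Tg replicate 1 was again above and Agt Tg replicates 2 and 3 below every Wt library. miR-150-5p had a different order, with 14.48, 14.59 and 14.60 in Wt and 14.21, 14.37 and 14.28 in Agt Tg replicates 1 to 3, and was lowest in Agt Tg replicate 1, where miR-221-3p was highest. Without Agt Tg replicate 1, the unadjusted threshold was passed by 1 of the 4, miR-142-3p, beside 33 of 320 rows (10.3%). The part of leukocytes in the values of miR-221 and miR-222 was not tested.

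The summed smooth muscle markers were highest in Agt Tg replicate 3, as miR-126 was, and so were 2 of the 4 markers taken singly, beside 37 of all 329 rows (11.2%). The 4 smooth muscle miRNAs, arms of miR-143 and miR-145 led by miR-143-3p, summed to 382236, 456310 and 412605 normalised reads in Wt and to 430712, 456263 and 585885 in Agt Tg replicates 1 to 3. The arms of miR-126 summed to 87273, 72184 and 70782 in Wt and to 77582, 85720 and 118266 in Agt Tg mice. miR-143-3p, which made up most of the sum, and miR-145-3p were highest in Agt Tg replicate 3, miR-145-5p in Agt Tg replicate 2 (14.50) and miR-143-5p in Wt replicate 1 (8.04). Of the 4 smooth muscle miRNAs 4 had a log2 fold change above 0, with and without Wt replicate 2. Of all 329 rows, 67.5% were below 0 over the 6 libraries. With and without Wt replicate 2, 0 of the 4 smooth muscle miRNAs were called. For this and the lists that follow, the share of all rows called was 4.86%, and 6.85% without Wt replicate 2, so that 0 calls among so few rows set no list apart. The part of smooth muscle in the values of miR-126 was not tested. Among markers of other cells, the erythroid list (4 tested, led by miR-486-5p) had 0 rows called, with and without Wt replicate 2. Its log2 fold changes were above 0 for 4 of 4 rows, and for 2 of 4 without Wt replicate 2, and its sum was lowest, at 50938, in Wt replicate 2. The sum was highest in Agt Tg replicate 1 (207942). It was lower in Agt Tg replicates 2 and 3 (110979 and 93086) than in Wt replicates 1 and 3 (171839 and 177118). The skeletal muscle list, led by miR-133a, had 2 rows tested and 0 called, with and without Wt replicate 2. It had miR-133b and miR-206 at the lowest value throughout, and its sum was highest, at 1699, in Wt replicate 2. miR-122-5p of liver was not called, with or without Wt replicate 2, and summed to between 74.9 and 145 normalised reads. Of the epididymis and testis list 2 rows were tested and 0 called, with and without Wt replicate 2. Of the epithelial list 7 were tested and 1 was called beside 16 of all 329 rows (4.86%). It was miR-205-5p, with a log2 fold change of −2.17 (adjusted p = 0.382, limma), and of −1.48 without Wt replicate 2 (adjusted p = 0.3003, limma).

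Other miRNAs known to act in endothelium or vascular smooth muscle were described as a list. Of 30 names on the list 29 were in the table and 26 were tested, and miR-17-3p, miR-155-5p and miR-503-5p were at the lowest value in all 6 libraries. The name not found, miR-210-3p, was also on the list as miR-210, which was tested. The 4 smooth muscle miRNAs are also on this list. The log2 fold change was above 0 for 13 of the 26, these 4 included, and below 0 for 13. Of all 329 rows, 67.5% were below 0. Of the 26, 0 were called, beside 16 of all 329 rows (4.86%). The median was −0.018 beside −0.19 for all 329 rows, and the groups did not overlap for 3 of them, beside 58 of the 329 (17.6%). Without Wt replicate 2 there were 0 calls, beside 22 of 321 rows (6.85%), and the median was −0.089, with 11 above and 15 below 0. The most abundant, miR-10a-5p, had a log2 fold change of −0.17, and of −0.12 without Wt replicate 2. miR-31-5p, chosen after its values were seen, had 6.37, 6.48 and 6.16 in Wt and 6.36, 4.55 and 3.62 in Agt Tg replicates 1 to 3, a pattern in which Agt Tg replicates 2 and 3 were again the low libraries. Without Agt Tg replicate 1, miR-31-5p and miR-18a-5p, 2 of the 26, passed the unadjusted threshold, beside 33 of 320 rows (10.3%). miR-18a-5p was at the lowest value in Agt Tg replicates 2 and 3. In that setting it was tested only through its Wt values (4.51, 4.52 and 4.49). Its fold change there depends on the lowest value, and its call is not read as a result.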

How the data were processed

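Small RNA libraries were sequenced from 6 WAT samples, 3 Wt and 3 Agt Tg by their labels. Counting by the authors was restricted to mature miRNAs, after alignment to the hairpins of miRBase, and the labels name the build mm10. The deposited table gives log2 values of read numbers scaled to 10000000 in each library, with a floor of 10. This was worked out from the values: 1924 of 1924 values above the floor came out as whole reads within 0.02. The floor stood for 6.39 to 10.6 reads. Rows above the floor in at least 3 of 6 libraries (329) were tested with limma 3.58.1 in R 4.3.3, with a variance trend and Benjamini-Hochberg adjustment over all 329. Intervals on reads are exact Poisson intervals and cover counting error only. Sequences and annotation were read with Python 3.11.15, and figures drawn with matplotlib 3.10.9.

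The miRNAs named were all arms of the members, the 2 rows most like each, the rows next to each in level, miR-191-5p, and the called or most abundant rows of the vascular and marker lists. Others were chosen after their values were seen. Members and lists were chosen with earlier results of these data known. The alternatives were log2(value + 1), TMM scaling, values relative to miR-191-5p, limma-voom on the recovered reads, other filters, a replicate block and leaving out each library.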

Additional observations from a re-analysis of the deposited data

How the results depend on the processing

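Under log2(value + 1), TMM scaling, values relative to miR-191-5p, limma-voom, other filters (no filter meaning above the floor in at least 1 library, 373 rows) and the replicate block, the 6 arms kept the sign of their log2 fold change and 0 of 6 passed either threshold. TMM scaling moved miR-221-5p to −0.010 and miR-126-3p to 0.23. The unadjusted threshold called 16 rows, and 9 where rows had to be above the floor in all 6 libraries. Leaving out 1 library gave 11 to 33 rows, and the highest number came without Agt Tg replicate 1, where 3 arms passed it. The filter of at least 3 libraries was applied to the libraries left. Rows above the floor only in the complete group could therefore enter, and rows above it only in the reduced group could not. The adjusted threshold called 0 rows under every alternative.

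Leaving out 1 library gave log2 fold changes of 0.0071 to 0.26 for miR-126-3p, 0.13 to 0.46 for miR-126-5p, −1.07 to −0.29 for miR-221-3p, −0.80 to 0.33 for miR-221-5p, −1.81 to −0.54 for miR-222-3p and −1.98 to −0.63 for miR-222-5p. The genotype difference in miR-222-3p minus miR-222-5p lay between −0.20 and 0.53, in the arms of miR-126 between −0.30 and −0.12, in those of miR-221 between −0.69 and −0.19, and in miR-222-3p minus miR-221-3p between −0.74 and −0.15. The vascular list had a median between −0.12 and 0.0012, with 0 to 2 rows called, and a median of 0.092 under TMM scaling. Its 2 calls, without Agt Tg replicate 1, included miR-18a-5p, which was at the lowest value in Agt Tg replicates 2 and 3. The causes were not tested.

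Correlations between samples of the same number were 0.22, −0.18 and −0.21 for numbers 1 to 3. The Agt Tg sample of the same number was the best match of the Wt sample for number 1, and was not for numbers 2 and 3. The numbers thus did not pair the samples throughout. With the replicate block, limma called 17 rows at the unadjusted threshold and 0 of the 6 arms. The block took the 95% interval of miR-222-3p off 0 (−1.93 to −0.028; adjusted p = 0.592, limma), at the same log2 fold change of −0.98, which misses the fold threshold.

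miR-222-5p had as few as 13 reads, which limits its precision. With 3 libraries a group, the intervals of miR-221 and miR-222 from all 6 libraries without the block span both directions.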
